A study of Mus musculus with 6 samples.

Results

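The genes described here encode 7 components of the complement system, C3, Cfb, Cfi, Hc, C8a, C8b and C9, and the mannose-binding lectins Mbl1 and Mbl2. They were chosen as the rows of the deposited table whose name, or one comma-separated part of it, equals one of these symbols, and all 9 were found, each as a row of its own, among 29981 rows. Messenger RNA was sequenced from livers of C57BL/6 mice whose hepatocytes lacked Abca1, a transporter of cholesterol and phospholipid, by Cre under the Albumin promoter (HSKO, n = 3), and from floxed mice labelled wildtype as their controls (WT, n = 3). Sex and age are not given in the labels, nor whether the controls carried Cre, and food was withheld from 9 am to 1 pm before the livers were taken. The Albumin promoter drives expression in hepatocytes, and other liver cells were sequenced with them in bulk RNA.

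Complement is a cascade of plasma proteins, most of them secreted by hepatocytes, that marks and lyses microbes. Its classical, lectin and alternative pathways meet at the cleavage of C3, and fragments of C3 coat the target. Cleavage of C5 then starts the terminal pathway, in which later components assemble a pore in the membrane. Mannose-binding lectins are oligomeric proteins that recognise sugars on microbial surfaces and, through the serine proteases that travel with them, start the lectin pathway. The liver raises several of these proteins in the acute phase response to infection or injury.

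The 9 genes lie on 7 chromosomes, and C8b and C8a are neighbours on chromosome 4, their ends 11.13 kb apart. In mm10, with GENCODE M21, C3 spans chr17:57203970-57228136, Cfb chr17:34856374-34862518, Cfi chr3:129835884-129875332, Hc chr2:34983331-35061438 and C9 chr15:6445327-6498751. C8b spans chr4:104766317-104804548, C8a chr4:104815679-104876398, Mbl1 chr14:41151458-41159601 and Mbl2 chr19:30232942-30239687. Gm13449 and Gm17662 are annotated on the opposite strand within Hc and C8a, and Gm20547 on the same strand over Cfb. The sources used here do not give the strand setting of the counting, so reads of these genes cannot be told apart from those of Hc, C8a and Cfb.

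The promoters of 7 of the 9 genes, 250 bases before to 50 bases after the start of the gene, were in the RefSeq table (build GRCm38.p6). The lectin pair is shown first, because Mbl1 and Mbl2 are paralogs with the largest log2 fold changes among the 9 genes. The capitals mark the longest run of letters shared by both promoters, 13 letters, which begins at position -23 from the start of Mbl1 and -57 from that of Mbl2. This run, found after the values were known, is held on either strand by 3 of 32817 promoters of the same length (0.00914%). Mbl1 and Mbl2 are among these 3 by construction, since the run was chosen as one that both hold. The share is therefore a description and not evidence of a shared element.
Mbl1 (chr14:41151206-41151505, plus strand): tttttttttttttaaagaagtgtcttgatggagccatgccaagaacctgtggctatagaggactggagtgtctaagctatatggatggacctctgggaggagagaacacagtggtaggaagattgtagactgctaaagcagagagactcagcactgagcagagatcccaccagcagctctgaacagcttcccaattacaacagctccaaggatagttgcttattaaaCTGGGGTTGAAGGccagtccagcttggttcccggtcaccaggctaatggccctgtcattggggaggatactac
Mbl2 (chr19:30232678-30232977, plus strand): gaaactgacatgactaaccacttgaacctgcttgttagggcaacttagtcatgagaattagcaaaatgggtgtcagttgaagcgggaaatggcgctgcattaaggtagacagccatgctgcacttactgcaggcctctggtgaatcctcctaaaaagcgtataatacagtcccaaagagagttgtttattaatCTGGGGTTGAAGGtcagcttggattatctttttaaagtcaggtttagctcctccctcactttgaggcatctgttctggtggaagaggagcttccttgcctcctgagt

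C3 and C9 are shown because each held the letters searched for binding of C/EBP factors, TTNNGCAA on either strand, which 10.8% of all promoters hold. The capitals mark the match, which begins at position -45 from the gene start in C3 and -132 in C9.
C3 (chr17:57228087-57228386, minus strand): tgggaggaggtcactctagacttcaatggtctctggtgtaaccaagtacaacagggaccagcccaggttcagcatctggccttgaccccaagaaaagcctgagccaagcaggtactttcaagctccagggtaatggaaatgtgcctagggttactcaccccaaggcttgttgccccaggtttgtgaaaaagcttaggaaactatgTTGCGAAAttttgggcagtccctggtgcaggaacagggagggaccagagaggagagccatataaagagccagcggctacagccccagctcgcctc
C9 (chr15:6445096-6445395, plus strand): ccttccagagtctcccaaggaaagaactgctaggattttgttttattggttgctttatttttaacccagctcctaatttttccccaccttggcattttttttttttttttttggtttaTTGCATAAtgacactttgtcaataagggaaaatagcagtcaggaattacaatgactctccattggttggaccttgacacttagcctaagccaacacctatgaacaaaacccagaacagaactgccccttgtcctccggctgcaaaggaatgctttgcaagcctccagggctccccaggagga

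C8a is shown because it held the letters of STAT sites, TTCNNNGAA on either strand, which 8.29% of all promoters hold. The capitals mark the match, which begins at position -228 from the gene start. No match for the HNF4 letters CAAAGTCCA or for the FXR inverted repeat was found on either strand in the 7 promoters, which says only that these letters are not in these windows. A match describes letters and is not evidence of binding.
C8a (chr4:104876349-104876648, minus strand): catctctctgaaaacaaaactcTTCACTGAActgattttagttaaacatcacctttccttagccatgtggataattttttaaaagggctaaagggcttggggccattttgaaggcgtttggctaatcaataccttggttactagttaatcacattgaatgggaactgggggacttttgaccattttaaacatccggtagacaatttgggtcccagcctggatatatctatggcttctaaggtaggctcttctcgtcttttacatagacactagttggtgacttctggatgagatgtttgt

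All 9 genes had lower mean levels in HSKO livers, and 3 of them, Mbl2, C3 and Hc, fell in the test. Values are the deposited levels, which are reads over the library's size factor, and the test was limma on log2(level + 1), with Benjamini-Hochberg adjustment over the 2750 rows with a mean level of at least 10. Among all tested rows, 11.6% were called lower and 28.5% higher at an adjusted p below 0.05. All 9 genes passed the filter, with 3 called lower, 0 higher and 6 neither. Their median log2 fold change, HSKO minus WT, was -0.60, against 0.07 over all tested rows. HSKO and WT values did not overlap, with HSKO below, for 7 of the 9 genes, a pattern that 20.1% of tested rows had. The labels do not tie each library to its own animal, so the p-values measure the spread between these libraries.

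**Figure D1:**
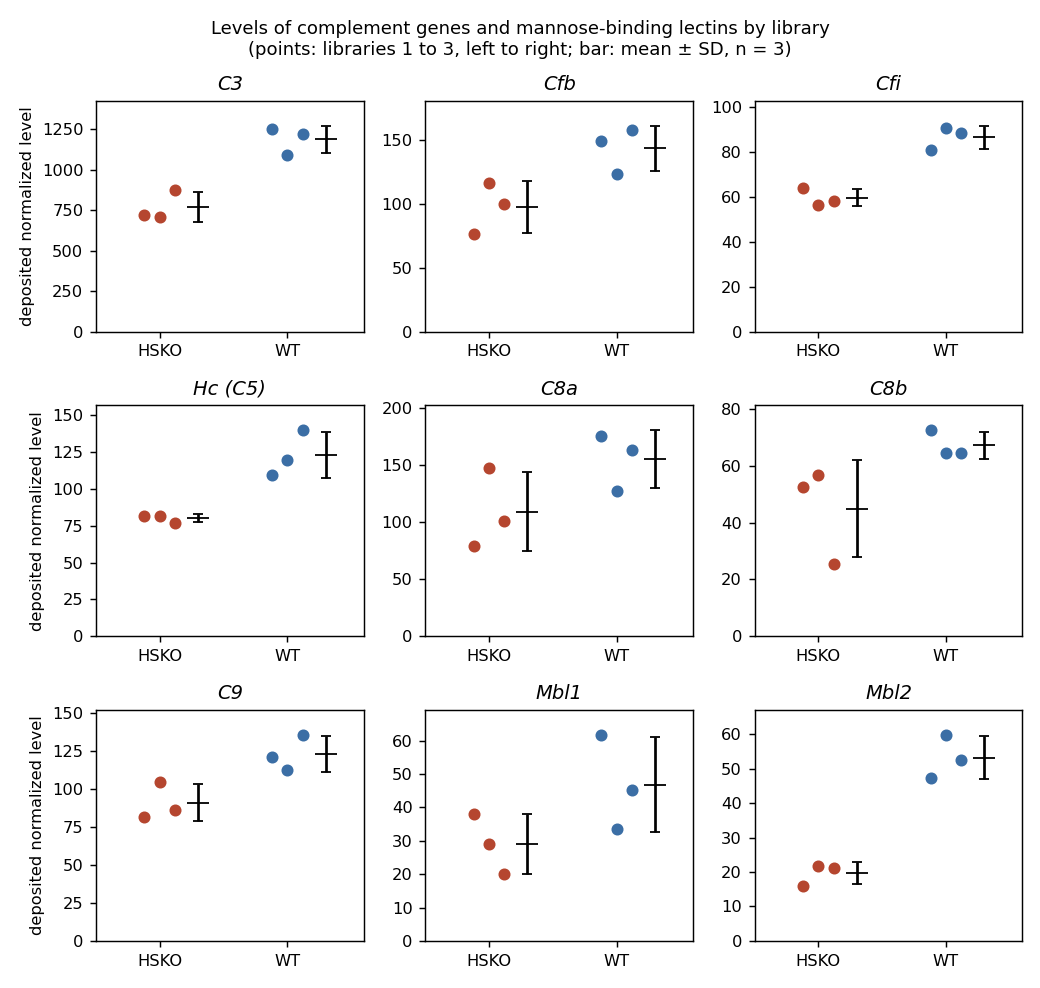
Deposited normalized level (vertical axis, from 0) of each of the 9 genes in the 3 HSKO and 3 WT libraries, as points, with mean and SD beside them. The HSKO points lie below all WT points except in C8a, where HSKO replicate 2 at 147 lies above WT replicate 2 at 127, and in Mbl1, where HSKO replicate 1 at 38.0 lies above WT replicate 2 at 33.6.

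The libraries were shallow, with 631020 to 702013 reads in HSKO and 838637 to 933319 in WT, and 1 row held 43.1% to 57.8% of them. The reads of the 9 genes summed to 826, 911 and 1025 in HSKO replicates 1 to 3 and to 2708, 2772 and 3669 in WT replicates 1 to 3. The targeted gene Abca1 had 2, 1 and 2 reads in HSKO and 20, 36 and 34 in WT, so each library matched its label. Of the 17 hepatocyte markers, 6 were called lower and 0 higher (11.6% and 28.5% of all tested rows). Their summed level was 8795 to 13493 in HSKO and 13620 to 16836 in WT. That level moved with the 9 genes, its part in their result was not tested, and in bulk liver fewer hepatocytes and less RNA per hepatocyte cannot be told apart. Summed markers of Kupffer cells (11 rows) ranged from 43.6 to 81.1 in HSKO and from 59.2 to 96.1 in WT, those of sinusoidal endothelium (7 rows) from 13.1 to 30.7 and from 32.9 to 37.8, and those of stellate cells (6 rows) from 11.7 to 20.4 and from 29.0 to 37.5, HSKO before WT. In these lists 2 Kupffer cell rows, 0 endothelial rows and 1 stellate cell row passed the filter and were tested. Cd5l of Kupffer cells and Dcn of stellate cells were called lower. Marco, the other Kupffer cell row tested, lay in the other direction and was not called (log2 fold change 1.01, limma adjusted p = 0.219). The cholangiocyte keratins Krt19 and Krt7 and all 4 neutrophil markers with a row were at 0 reads in every library, and the 5 lymphocyte markers summed to at most 5 reads in a library.

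Mbl2, which encodes mannose-binding lectin C, showed the largest difference among the 9 genes. Its level was 16.1, 21.8 and 21.3 in HSKO replicates 1 to 3, against 47.3, 59.9 and 52.5 in WT replicates 1 to 3, from 11, 15 and 16 reads against 62, 91 and 93. The highest HSKO library lay far below the lowest WT library. The means were 19.7 ± 3.17 in HSKO and 53.2 ± 6.32 in WT (SD, n = 3). The log2 fold change was thus -1.39, with SE 0.26 and adjusted p = 0.000862 in limma. Summed reads per size factor in HSKO were 0.370 of those in WT (exact 95% interval 0.260 to 0.515, for counting error alone). Leaving out any 1 library kept the call, with adjusted p between 0.000864 and 0.00659.

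Mbl1, which encodes mannose-binding lectin A, varied more and did not pass the test. It was at 38.0, 29.1 and 19.9 in HSKO, against 61.8, 33.6 and 45.1 in WT. WT replicate 2 was the lowest control and lay below HSKO replicate 1, so the groups overlapped. The means were 29.0 ± 9.03 in HSKO and 46.8 ± 14.2 in WT (SD, n = 3), which limma put at -0.68 on the log2 scale (SE 0.30, adjusted p = 0.0756). Without HSKO replicate 1 Mbl1 was called lower (log2 fold change -0.89, adjusted p = 0.0456), and the value was -0.44 without HSKO replicate 3.

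Whether the lectins differed from each other was tested by the ratio of their reads within each library, which does not depend on scaling. Mbl2 had 0.423, 0.750 and 1.07 times the reads of Mbl1 in HSKO, against 0.765, 1.78 and 1.163 times in WT. The ranges overlapped, since HSKO replicate 3 lay above WT replicate 1, and the difference in log2 ratio was -0.74 (two-sided exact permutation p = 0.2, 1.0 adjusted over the 10 ratios computed). Leaving out HSKO replicate 1 brought this difference to -0.38, and leaving out WT replicate 2 brought it to -0.44. A design of 3 against 3 cannot give a p below 0.1, so none of these ratios could pass.

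C3, the component on which all pathways converge, was the most abundant of the 9 and fell in HSKO livers. Its level was 718, 711 and 874 in HSKO and 1249, 1093 and 1223 in WT, with reads of 491, 489 and 657 against 1637, 1661 and 2168. Every HSKO library was lower than every WT library. The means were 767 ± 92.1 in HSKO and 1188 ± 83.6 in WT (SD, n = 3), and limma gave a log2 fold change of -0.63 (SE 0.22) with adjusted p = 0.0301. Leaving out HSKO replicate 1, HSKO replicate 2 or WT replicate 2 ended the call, with adjusted p of 0.0970, 0.134 and 0.0723. The interval of its read fold, 0.614 to 0.686 around 0.649, was the narrowest of the 9.

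Factor B, encoded by Cfb, is the protease that joins C3b in the alternative pathway convertase, and factor I, encoded by Cfi, inactivates C3b. Cfb was at 76.0, 116 and 99.7 in HSKO, against 149, 123 and 157 in WT. HSKO replicate 2 came close to WT replicate 2 but stayed below it. The log2 fold change of Cfb was -0.56, with a 95% interval of -1.07 to -0.05 and a limma adjusted p of 0.0707. Cfi was at 64.3, 56.7 and 58.5 in HSKO and at 80.9, 90.8 and 88.5 in WT, so that HSKO and WT were well apart. Its log2 fold change was -0.53 (95% interval -1.02 to -0.04, limma adjusted p = 0.0789). Neither the builder nor the opponent of the convertase passed the test.

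Hc encodes C5, the first protein of the terminal pathway, and was called lower. It was at 81.9, 81.4 and 77.1 in HSKO and at 109, 120 and 140 in WT. The HSKO libraries lay within a narrow band below all controls. Means were 80.1 ± 2.61 in HSKO and 123 ± 15.6 in WT (SD, n = 3), which limma put at -0.60 on the log2 scale (SE 0.23, adjusted p = 0.0454). The call lay near the threshold and was lost without any 1 library other than WT replicate 1, with adjusted p of 0.0794, 0.105 and 0.0872 without HSKO replicates 1 to 3 and 0.121 without either WT replicate 2 or WT replicate 3.

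C8a and C8b encode chains of C8, which anchors the pore in the membrane, and C9 forms the ring of the pore. None of these 3 genes passed the test. C8a was at 78.9, 147 and 101 in HSKO and at 176, 127 and 163 in WT, where HSKO replicate 2 exceeded WT replicate 2. Its log2 fold change was -0.54 (95% interval -1.08 to 0.004, limma adjusted p = 0.103). C8b was at 52.6, 56.7 and 25.3 in HSKO and at 72.5, 64.5 and 64.3 in WT. HSKO replicate 3, with 19 reads, was the low library, and without it the log2 fold change of -0.65 (adjusted p = 0.0796) became -0.29 (adjusted p = 0.392). The neighbouring genes therefore differed in which HSKO library was low, replicate 1 for C8a and replicate 3 for C8b.

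C9 had the smallest difference of the 9, at 81.9, 105 and 86.4 in HSKO and 121, 113 and 136 in WT. The groups did not overlap, and its log2 fold change was -0.44 (95% interval -0.93 to 0.05, limma adjusted p = 0.141). Before adjustment, the 95% intervals of Cfb, Cfi, C8b and Mbl1 lay below 0 and those of C8a and C9 reached above it. The lower bounds of the 6 genes that missed the threshold ran from -1.30 for Mbl1 to -0.93 for C9.

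Relative to C3 within the same library, Mbl2 stood lower in HSKO, and the other 7 genes overlapped between groups. Mbl2 had 0.0224, 0.0307 and 0.0244 reads per C3 read in HSKO, against 0.0379, 0.0548 and 0.0429 in WT. The highest HSKO ratio lay below the lowest WT ratio. The difference was -0.80 log2 units (two-sided exact permutation p = 0.1, the smallest possible, 1.0 adjusted over the 10 ratios). The share of all tested rows whose ratio to C3 separates the groups was not computed, so this separation is a description. The differences of the other ratios to C3 lay between -0.06 for Mbl1 and 0.19 for C9, with exact p of 0.4 or more, and that of C9 was 0.0363 without HSKO replicate 2. The reads of all 9 genes together were 0.137, 0.131 and 0.101 of those of the hepatocyte markers in HSKO and 0.152, 0.113 and 0.123 in WT, which overlapped (exact permutation p = 0.7). C3 held most of the summed reads in each library, from 489 of 911 in HSKO replicate 2 to 657 of 1025 in HSKO replicate 3.

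**Figure D2:**
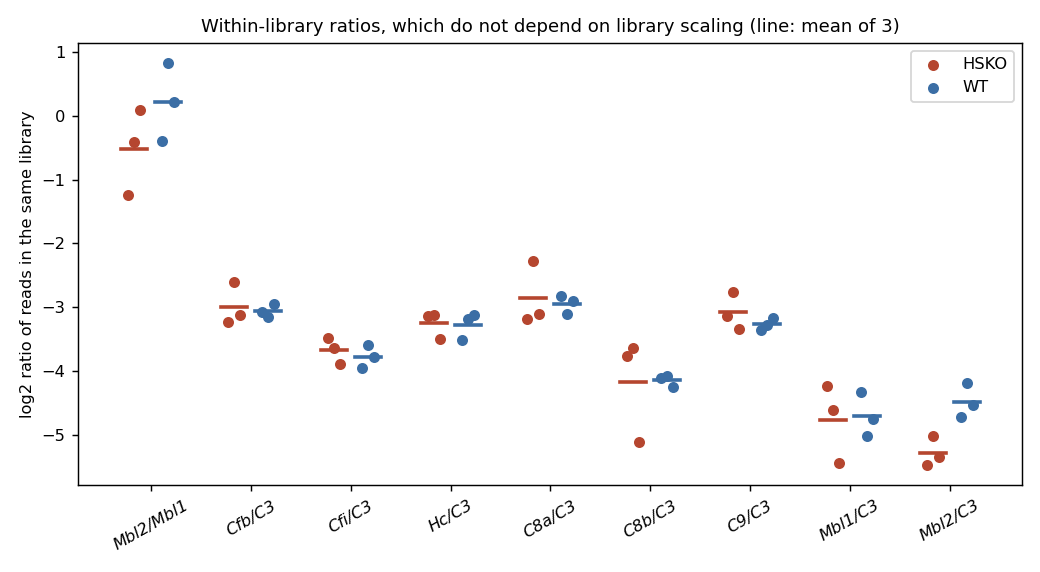
Log2 ratio of reads within each library (vertical axis) for Mbl2 over Mbl1 and for 8 genes over C3, with 3 HSKO and 3 WT libraries as points and group means as lines. Mbl2 over C3 is the ratio whose groups are apart, with means of -5.29 in HSKO and -4.49 in WT.

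Divided by the merged exon length of each gene, the order of levels in WT was C3, C9, Cfb, Mbl2, C8a, Cfi, C8b, Mbl1 and Hc. Per kilobase C3 averaged 149 ± 17.9 in HSKO and 231 ± 16.3 in WT (SD, n = 3), apart from the next gene, C9, at 44.4 ± 5.90 and 60.2 ± 5.77. Below C3, the libraries of each gene overlapped those of the next in both groups, except between Cfi and C8b. In HSKO the order was C3, C9, Cfb, C8a, Cfi, C8b, Mbl1, Mbl2 and Hc. Mbl2 thus took place 8 in HSKO, at 18.1 ± 2.91 per kilobase, against place 4 in WT, at 48.9 ± 5.80, while the other 8 genes kept their order among themselves. The lengths merge all annotated coding transcripts and may exceed those expressed in liver.

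How many of the 9 genes were called depended on how libraries were scaled, since the balance of the whole table did. The reads of the 9 genes, mostly C3, were 0.140% ± 0.0165 of HSKO libraries and 0.346% ± 0.0793 of WT libraries (SD, n = 3). The share was 2.47 times as high in WT (two-sided exact permutation p = 0.1, the smallest possible). Without the most abundant row the shares were 0.301% ± 0.00594 and 0.653% ± 0.112, 2.17 times as high in WT (exact permutation p = 0.1). With scaling to total reads all 9 were called lower, as were 38% of tested rows. All 9 were also called lower with total reads minus the most abundant row (33.2% of rows), upper quartile scaling (25.6%) and TMM in edgeR (21.9%). DESeq2 with the deposited size factors called C3 and Mbl2 (6.62% of rows), with an adjusted p of 0.0533 for Hc. Mbl2 was the single gene of the 9 called lower with no filter (1.53% of rows) or no trend (9.67%). Rows called lower were 9.31%, 8.55% and 10.3% without HSKO replicates 1 to 3 and 5.78% and 5.71% without WT replicates 2 and 3, where 1 or 2 of the 9 genes were.

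With scaling to the hepatocyte markers, Mbl2 was the only one of the 9 called lower (log2 fold change -0.87, adjusted p = 0.0326), where 0.873% of rows were. The other 8 lay between -0.15 for Mbl1 and 0.10 for C9, none called, and Cfi and C9 were above 0. This scaling divides by the summed reads of the markers, in which Alb weighs most. Alb held 1935 of 6017 marker reads in HSKO replicate 1 and 11463 of 24527 in WT replicate 2. The median of all tested rows moved with each scaling, by 0.51 for hepatocyte markers, -0.64 for total reads, -0.47 without the most abundant row, -0.28 for upper quartile and -0.20 for TMM. Higher against lower calls were 783 to 320 with the deposited scaling, 1056 to 24 with hepatocyte markers, 221 to 1044 with total reads, 429 to 913 without the most abundant row, 580 to 703 with upper quartile and 684 to 601 with TMM. In each of these scalings Mbl2 was the lowest of the 9, from -2.05 with total reads to -0.87 with hepatocyte markers, and the median of the 9 genes lay below that of all rows.

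**Figure D3:**
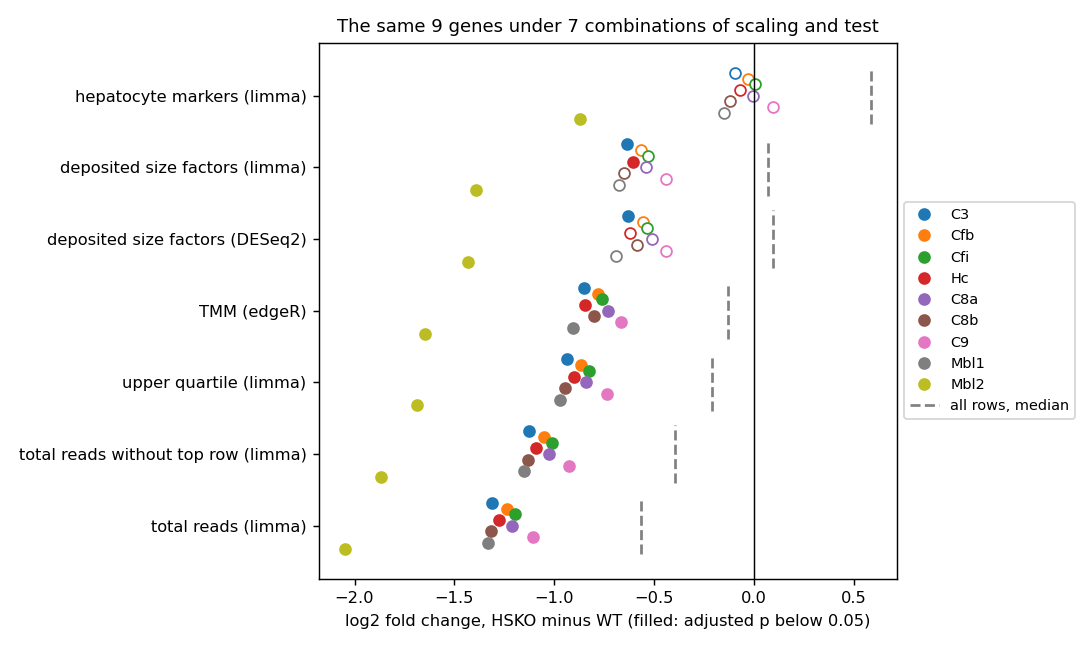
Log2 fold change, HSKO minus WT (horizontal axis), of the 9 genes under 7 combinations of scaling and test, with filled points where adjusted p was below 0.05 and a dashed mark at the median of all tested rows. The 9 points shift together with the scaling, from -0.87 to 0.10 with hepatocyte markers to -2.05 to -1.11 with total reads, and Mbl2 lies lowest in every row.

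Of 48 other complement genes listed by role, 45 had a row and 17 a mean level of at least 10. Among these 17, 8 were called lower, 1 higher and 8 neither (11.6% and 28.5% of all rows), with a median log2 fold change of -0.53. The list was drawn up with earlier results of these data known. In the classical pathway, the protease genes C1ra and C1s1 fell, to 38.3 ± 10.7 and 39.3 ± 8.11 in HSKO, against 74.6 ± 3.76 and 73.6 ± 4.16 in WT (SD, n = 3, limma adjusted p = 0.00632 and 0.00832). C1ra was at 27.8, 37.8 and 49.2 in HSKO and 72.5, 72.4 and 79.0 in WT, so that all HSKO libraries were below the controls. C1ra and C1s1 have close copies, C1rb and C1s2, between which reads could be split, and these had at most 4 reads in any library. C2, the protease of the classical and lectin convertase, was at 12.8 ± 3.04 in HSKO and 11.5 ± 1.42 in WT (limma adjusted p = 0.801).

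The serine proteases of the lectin pathway, which bind the mannose-binding lectins, were not called lower beside Mbl2. Masp2, which cleaves the next components of that pathway, rose in HSKO, to 136, 145 and 118, against 79.4, 96.7 and 63.2 in WT (log2 fold change 0.75, SE 0.24, limma adjusted p = 0.0203). No HSKO library overlapped a WT library. Its reads were 93, 100 and 89 in HSKO and 104, 147 and 112 in WT, and its value depended on scaling, from 0.08 with total reads (adjusted p = 0.791) to 1.28 with hepatocyte markers. It was not called either with upper quartile scaling (adjusted p = 0.111) or TMM (0.0566), or without HSKO replicate 1 (0.0577), HSKO replicate 2 (0.0847) or WT replicate 3 (0.0698). Masp1 was at 13.6 ± 2.17 in HSKO and 13.6 ± 2.57 in WT (SD, n = 3, limma adjusted p = 0.999). The log2 fold change of Masp1 also depended on scaling, from -0.63 with total reads (limma adjusted p = 0.166) to 0.50 with hepatocyte markers (0.320). The ficolin gene Fcna and the collectin genes Colec10, Colec11 and Colec12 were below the filter, with at most 16 reads in any library.

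In the terminal pathway C6, which binds C5b, was called lower at 23.0 ± 1.10 in HSKO and 37.7 ± 5.60 in WT (SD, n = 3, limma adjusted p = 0.0463), and lost this call without any 1 of the 6 libraries (adjusted p from 0.0605 to 0.167). C8g, the remaining chain of C8, was at 19.2 ± 4.09 in HSKO and 21.7 ± 1.76 in WT (limma adjusted p = 0.633). C7 had at most 1 read in a library.

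Of the 9 soluble regulators, all tested, 5 were lower, 0 higher and 4 not called (11.6% lower and 28.5% higher over all tested rows). Cfhr2 was at 52.6, 46.5 and 51.9 in HSKO and 75.6, 96.7 and 107 in WT. All HSKO libraries lay below all controls (log2 fold change -0.86, SE 0.25, limma adjusted p = 0.00968), and close copies of this gene may share its reads. C4bp, which binds C4b, and Serping1, the C1 inhibitor gene, had log2 fold changes of -0.81 and -0.77 (limma adjusted p = 0.0214 and 0.0240). Serping1 lost its call without HSKO replicate 2 (adjusted p = 0.0573), HSKO replicate 3 (0.0888), WT replicate 2 (0.0792) or WT replicate 3 (0.0858), and C4bp without HSKO replicate 1 (0.0948) or WT replicate 2 (0.0660).

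Vtn and Clu, which encode the pore inhibitors vitronectin and clusterin, were at 164 ± 17.6 and 149 ± 6.01 in HSKO and 237 ± 28.9 and 204 ± 15.6 in WT (SD, n = 3, limma adjusted p = 0.0712 and 0.1105). The carboxypeptidase N genes Cpn1 and Cpn2 had log2 fold changes of 0.21 and -0.27 (limma adjusted p = 0.538 and 0.404). Among membrane regulators only Cd59a, which blocks pore assembly, reached the filter, at 20.6 ± 4.14 in HSKO and 23.0 ± 0.662 in WT (limma adjusted p = 0.648). No complement receptor reached it, and the properdin gene Cfp and the factor D gene Cfd had at most 7 and 1 reads, so differences in them were not detectable at this depth. With scaling to hepatocyte markers 0 of the 17 other complement genes were called lower (0.873% of all rows) and 1, Masp2, was called higher (38.4%). With total reads 13 were lower, where 38% of all rows were, and 0 higher.

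**Figure D4:**
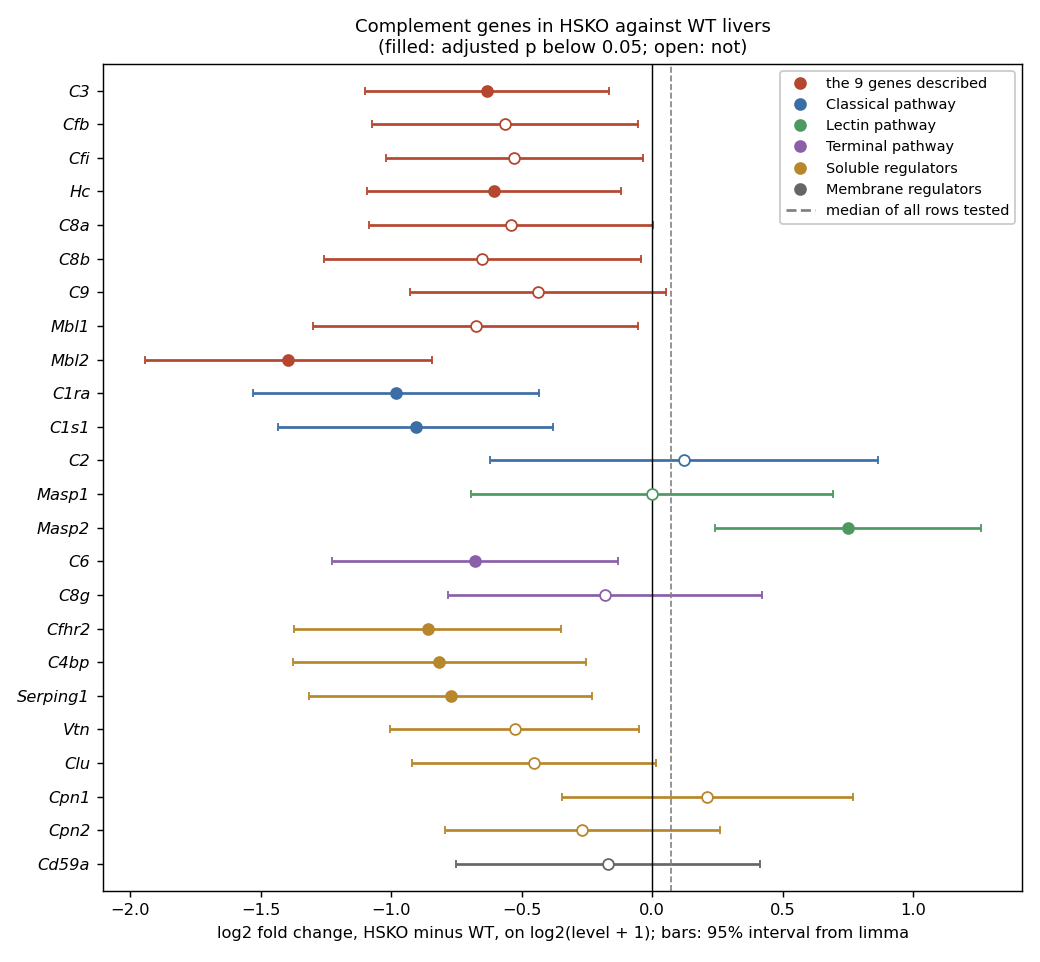
Log2 fold change, HSKO minus WT (horizontal axis, with 95% intervals), of the 9 genes and of 15 of the 17 other complement genes tested, by role, on the deposited scaling; filled points passed the test. Mbl2 at -1.39 lies lowest and Masp2 at 0.75 highest, and the dashed line marks the median of all tested rows at 0.07.

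Genes of transcription factors and cytokine receptors that act on complement expression were mixed. Of 13 listed, 8 were tested, with 0 lower, 2 higher and 6 not called, where 11.6% of all tested rows were lower and 28.5% higher. The count of higher genes is thus near that background. Cebpb, a C/EBP factor of the acute phase, rose to 134 ± 30.6 in HSKO, against 57.6 ± 8.70 in WT (SD, n = 3, log2 fold change 1.19, SE 0.25, limma adjusted p = 0.00142), and was not called with total reads (0.53, adjusted p = 0.0975). Il6ra, the interleukin-6 receptor gene, was called higher, at means of 20.5 ± 8.24 in HSKO and 9.25 ± 3.27 in WT (SD, n = 3, limma adjusted p = 0.0363). Its groups overlapped, and the call was lost with TMM (adjusted p = 0.0566), DESeq2 (0.0681), upper quartile scaling (0.107) and total reads (0.442), and without HSKO replicate 1 (0.108), HSKO replicate 3 (0.152), WT replicate 1 (0.0976) or WT replicate 2 (0.0973). Cebpa was at 195 ± 40.5 in HSKO and 183 ± 39.6 in WT (SD, n = 3, limma adjusted p = 0.783).

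One control library stood apart in acute phase genes. The serum amyloid gene Saa1 was at 32.2, 14.5 and 9.31 in HSKO and 232, 15.8 and 7.33 in WT, so that WT replicate 1 was far above the other 5 libraries. Haptoglobin, Hp, was at 197, 169 and 250 in HSKO and 590, 262 and 277 in WT, highest in the same library. Among C3, Cfb and the lectins, WT replicate 1 was the highest control for C3 and Mbl1, the middle one for Cfb and the lowest for Mbl2. Without WT replicate 1 the log2 fold change of Mbl1 was -0.46 (limma adjusted p = 0.261) and that of Cfb -0.53 (0.112). The part of that library's acute phase levels in these values was not tested. Without WT replicate 1, Mbl2, C3 and Hc were all called lower (log2 fold changes -1.47, -0.60 and -0.69, adjusted p = 0.000864, 0.0466 and 0.0323), and 11.4% of rows were. Of 11 tested acute phase genes, 6 were called lower and 0 higher, where 11.6% of all tested rows were lower and 28.5% higher, with a median log2 fold change of -0.73. Of these 6, Hp, Hpx and Fga lost the call without WT replicate 1 (adjusted p = 0.188, 0.0640 and 0.0727). Orm1, Crp and Fgg kept it. Saa4 was then called higher (log2 fold change 0.89, limma adjusted p = 0.00926). The log2 fold changes of Saa1 and Saa2 turned from -0.87 and -0.34 to 0.56 and 1.30 (limma adjusted p = 0.349 and 0.0526). The count of 0 higher thus depended on that library.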

How the data were processed

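Liver messenger RNA of 3 HSKO and 3 WT samples was analysed from 1 deposited table. The deposited values are a signal, gene reads over a size factor that the authors applied to each library. The submitters' processing notes list the mm10 build, DESeq 1.16.0, RSEM 1.2.9, Bowtie and FastQC 0.11.3. The sources used here do not give their order, the annotation, filters or strand setting. Dividing each value by that of 1 read gave whole reads for 100% of values, within 0.001. Intervals are for counting error alone, because reads copied in amplification count as separate.

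The main test was limma 3.58.1 (R 4.3.3) with a mean-variance trend on log2(value + 1), two-sided, on the 2750 rows whose mean was 10 or more, HSKO minus WT, adjusted by Benjamini-Hochberg, threshold 0.05; the log2(value + 1) scale understates changes of low genes. Count tests on the recovered reads, as alternatives, were edgeR 4.0.16 quasi-likelihood with TMM (1285 calls) and DESeq2 1.42.0 (869 calls). Ratios within a library used exact permutation tests (scipy 1.17.1). The procedure was tested on simulated data.

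The 9 genes and the lists were chosen with earlier results of these data known. Named were the 9 genes, Abca1, every other listed complement gene that was tested, and the 3 rows most like the 9 genes; transcription factors, receptors and acute phase genes named singly were chosen after their values were seen. Some listed genes enter the counts but are not reported here by name. Of 48 listed complement genes, 42 matched by symbol, 3 by an older symbol (C1s1 as C1s) and 3 had no row. Alternatives were 2 other pseudocounts, 2 other filters, 4 other scalings, edgeR, DESeq2, no trend, robust estimation, the replicate number as a block and each library left out.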

Additional observations from a re-analysis of the deposited data

How the results depend on the processing

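Mbl2 was called lower in all 18 alternatives in which it was tested; with a minimum mean of 50 it was not tested. The log2 fold changes of Cfi and C9 turned to 0.0054 and 0.10 with scaling to hepatocyte markers, as did those of C8g (0.33), Clu (0.084), Cpn2 (0.26), Cd59a (0.35), Vtn (0.011) and Masp1 (0.50). Those of C2 and Cpn1 turned to -0.16 and -0.085 with upper quartile scaling, -0.50 and -0.45 with total reads and -0.33 and -0.27 without the most abundant row, and C2 to -0.076 with edgeR. None of these was called in the main test or in that alternative. Masp1, at -0.0005, lay between -0.11 and 0.13 with each library left out. The cause was not tested.

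The 9 genes had 3 called lower. This became 1 with no filter (1.53% of rows), hepatocyte marker scaling, no trend (9.67%) and the replicate block, 9 with total reads, without the most abundant row, with upper quartile scaling and with edgeR, and 1 to 3 with each library left out. The other complement genes had 8 lower and 1 higher; lower became 4 with no filter, 0 with hepatocyte markers, 13 with total reads and 5 with DESeq2, higher became 0 with no filter, upper quartile scaling, total reads, without the most abundant row and with edgeR, and with each library left out they ranged from 4 to 7 and from 0 to 1. Over all rows, 783 were higher and 320 lower; lower became 211 with no filter, 118 with a minimum mean of 50 (391 higher), 703 with upper quartile scaling, 24 with hepatocyte markers, 1044 with total reads (221 higher), 913 without the most abundant row (429 higher), 601 with edgeR and 182 with DESeq2, and with each library left out lower ranged from 157, without WT replicate 3 (159 without WT replicate 2), to 313 and higher from 581 to 822. Fewer rows were tested with the minimum mean of 50.

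With each library left out, differences of log2 ratios within a library ranged from -0.126 to 0.188 for Cfb to C3, -0.0944 to 0.149 for Hc to C3, -0.200 to 0.254 for C8a to C3, -0.294 to 0.437 for C8b to C3, -0.325 to 0.282 for Mbl1 to C3, 0.00095 to 0.211 for Cfi to C3, 0.0363 to 0.323 for C9 to C3, -0.935 to -0.656 for Mbl2 to C3, -1.05 to -0.383 for Mbl2 to Mbl1 and -0.163 to 0.0637 for the 9 genes to hepatocyte markers.

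The labels do not say that the replicate numbers pair the libraries. Deviations of same-numbered libraries from their group means had correlations of -0.03, -0.03 and -0.02 across rows, which cannot exclude a pairing. With the replicate number as a block, 1020 rows were called against 1103, and C3 and Hc were not (adjusted p = 0.0551 and 0.0771), which says nothing of a weaker effect.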

Other observations

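The rows whose level ran most like the mean of the standardised log2 levels of the 9 genes, among 2232 tested rows with a single official symbol, were Zadh2, Asgr1 and Slc6a13. Likeness was Pearson's r over the 6 libraries, 0.999, 0.995 and 0.991, given as a description, since the libraries fall into HSKO and WT and share their scaling. Asgr1, a chain of the asialoglycoprotein receptor of hepatocytes, averaged 27.8 in HSKO and 45.8 in WT, Zadh2 6.15 and 13.9, and Slc6a13 17.5 and 34.7.

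The initiator genes C1qa, C1qb and C1qc, which resident macrophages make, were below the expression filter. C1qa had 11, 6 and 4 reads in HSKO and 15, 16 and 13 in WT, C1qb 4, 1 and 2 in HSKO and 10, 11 and 12 in WT, and C1qc 9, 3 and 13 in HSKO and 11, 12 and 11 in WT. At deposited levels C1qa ranged from 5.32 to 16.1 in HSKO and from 7.33 to 11.4 in WT, and C1qc from 4.36 to 17.3 in HSKO and from 6.20 to 8.39 in WT, so both overlapped. C1qb ranged from 1.45 to 5.85 in HSKO and from 6.77 to 7.63 in WT, with no overlap. None of the 3 was tested.

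The membrane regulator Cd55, decay-accelerating factor, had 0, 1 and 0 reads in HSKO and 8, 7 and 3 in WT, below the filter and not tested.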
